A study of Danio rerio with 20 samples.

Results

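In the transcriptome of the zebrafish heart apex, 52 of 66128 assembled loci peaked at 1.5 dpci (days post cryoinjury). They were selected on their measured values. Each had a mean of at least 100 over the 20 libraries and of at least 5 in the non-injured group, and its lowest 1.5 dpci library lay above the highest of the other 16. Its mean log2(value + 1) at 1.5 dpci also had to exceed that of the next highest group by at least 1, which is called the rule difference here. The 100 loci highest in non-injured apexes were to be left out, which removed none, and up to 150 loci were to be taken, a limit that was not reached. The same criteria with another group as the peak found 79 loci for 3 dpci, 1 for 7 dpci and 9 for 14 dpci.

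The study followed wild-type (WT) zebrafish hearts after cryoinjury, in which a part of the ventricle is killed by freezing. The groups were non-injured apexes and apexes at 1.5, 3, 7 and 14 dpci, with 4 libraries each. No other allele or agent is given for any group. Each library pooled 3 to 4 ventricular apexes, so a library is a mix of animals and of all cell types in that tissue. The study used adult male and female fish aged 5 to 12 months, and its methods do not give sex or age for each library. In such bulk samples a change in the share of a cell type and a change in RNA per cell cannot be told apart.

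As background, a freezing injury to the zebrafish ventricle leaves dead muscle at the apex, and the first days after it are a time of clotting, inflammation and stress responses in the surviving tissue. Neutrophils and macrophages enter the wound, and the epicardium and endocardium switch on genes across the heart before the response narrows to the wound. Later, cardiomyocytes near the wound divide, and a temporary scar is laid down and then removed. Transcripts that are high early and low afterwards are a well known class in this model. Which of these processes the 52 loci belong to was not tested, because their numbers are not paired with genes in the files used here.

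The values are read counts per locus, scaled by one factor for each library. They are not divided by length, so levels are compared below within a locus and never as abundance per length between loci. In 19 libraries whole reads could be recovered from the values, between 19349169 and 32939802 per library. Along the leading axis of a principal component analysis (31.5% of variance), the libraries fell into 2 sets, which put non-injured replicates 1 and 2 beside all 7 and 14 dpci libraries and non-injured replicates 3 and 4 beside all 1.5 and 3 dpci libraries. The comparisons with the non-injured group are therefore also given against each of these pairs. The pairs were chosen on these same values and hold 2 libraries each. Counts and lost calls against them follow in part from this choice and are a description only. Defining markers of heart muscle or other cell types could not be checked without gene names.

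At their peak the loci were well covered. The recovered reads of a locus in a 1.5 dpci library were at least 160, with a median of 823. Between 1.5 dpci and the non-injured group the ratio of mean values ran from 2.06 to 197 with a median of 4.86. It was 10 or more in 12 loci, and under 4 in 19. These differences chose the loci and carry no test. In the limma test on all 62594 loci with any value, 12.8% rose and 10.1% fell at 1.5 dpci against non-injured apexes, and 50 of the 52 were among those that rose, a count that the selection fixed in large part.

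**Figure D1:**
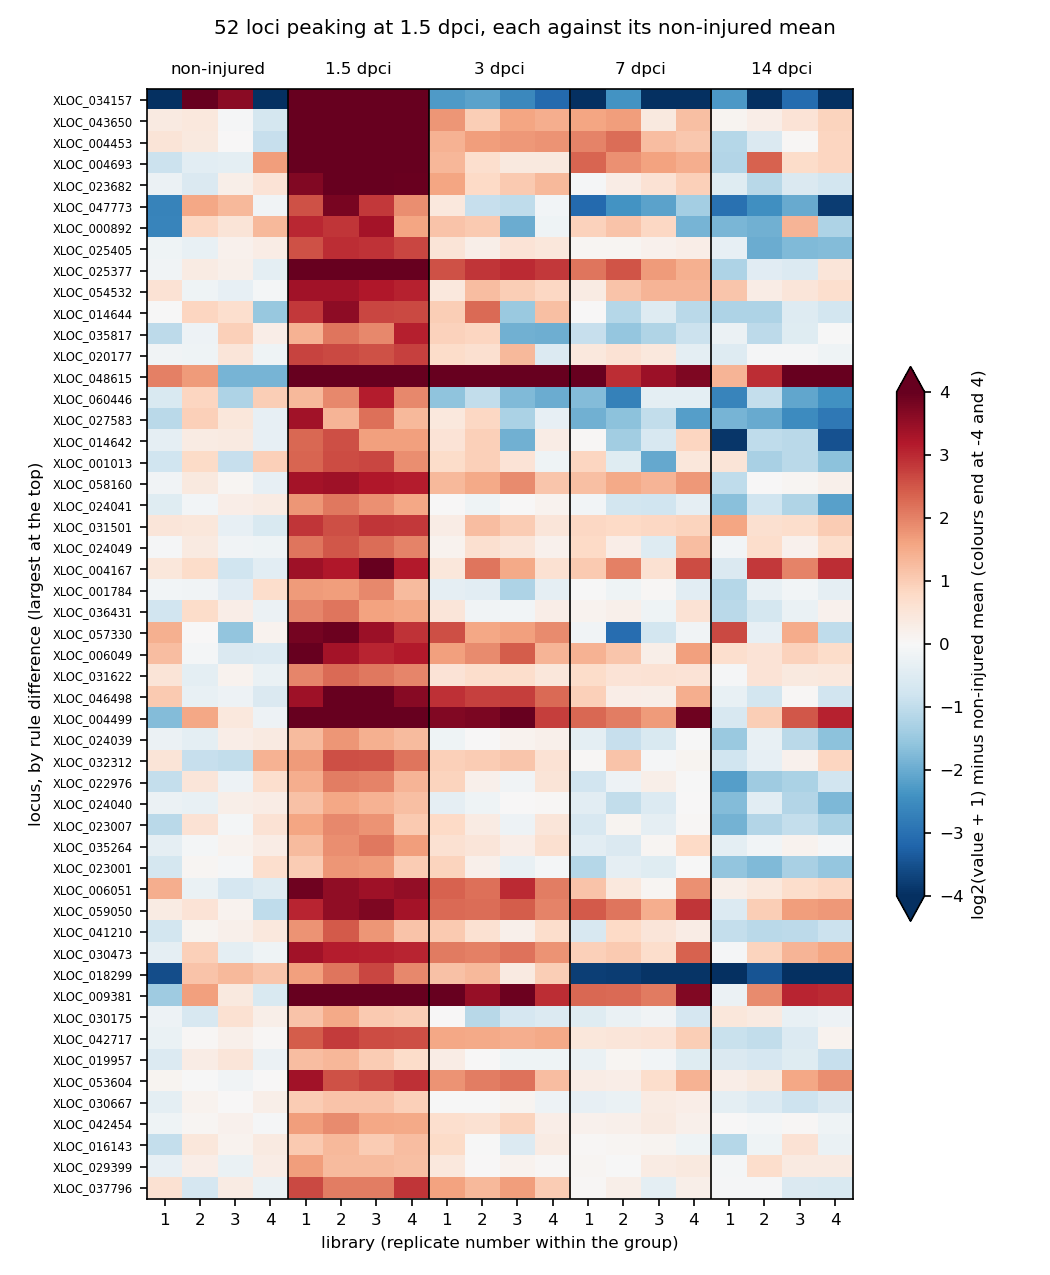
Heat map of the 52 loci (rows, by rule difference) in the 20 libraries (columns), coloured by log2(value + 1) minus the mean of the 4 non-injured libraries. The block at 1.5 dpci is red in every row, as the selection required, while the columns of 3, 7 and 14 dpci differ in shade and sign between the loci.

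The loci fell into 4 kinds by the group that came second. In 31 loci 3 dpci was the next highest group, in 11 the non-injured group, in 6 the 7 dpci group and in 4 the 14 dpci group. The mean of log2(value + 1) went down at each step from 1.5 through 3 and 7 to 14 dpci in 35 of the 52. The selection fixed the first of these steps, and the share of all loci with the later steps was not counted. Where 3 dpci came second the ratio of means between 1.5 dpci and non-injured apexes had a median of 6.71, and where the non-injured group came second it had a median of 3.88. Since the selection acts on these values, the 2 medians are a description only.

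XLOC_034157 had the largest rule difference, 6.05. Its values were 0, 382, 202 and 0 in the non-injured libraries, 1424, 1349, 1585 and 494 at 1.5 dpci, 2.44, 2.78, 1.77 and 0.917 at 3 dpci, 0, 2.19, 0 and 0 at 7 dpci and 2.38, 0, 0.988 and 0 at 14 dpci. It was thus close to silent in every library from 3 dpci on, but the non-injured group was divided, with replicates 2 and 3 high and replicates 1 and 4 at 0. A value of 0 allows up to 3 reads, which is 3.79 in non-injured replicate 1 and 3.59 in replicate 4. The divided libraries are not the pairs of the first principal component. The rule difference was 7.72 with a pseudocount of 0.1 and 4.89 with 5, and the ratio of mean values to the non-injured group was 8.31.

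XLOC_043650 gave the widest gap between libraries. It had 31.6, 32.6, 23.3 and 14.4 in non-injured apexes, 746, 1565, 854 and 859 at 1.5 dpci and 85.3, 49.03, 75.1 and 68.8 at 3 dpci. Its lowest 1.5 dpci library was 8.75 times the highest of the other 16, and its ratio of means to the non-injured group was 39.5. XLOC_004453 behaved in a like way, with 1347, 2929, 2022 and 1960.5 at 1.5 dpci against 80.8, 74.1, 56.5 and 28.7 in non-injured apexes. Its 12 later libraries had 25.03 to 266.

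XLOC_004693 had 1525, 3461, 2089 and 1667 at 1.5 dpci and 30.99 to 374 elsewhere. Its second highest group was 7 dpci, with 366, 255, 223 and 196, and not 3 dpci, with 180.4, 116, 94.5 and 93.5, and the 2 groups did not overlap. XLOC_023682 had 1958, 3053, 2617 and 2345 at 1.5 dpci against 128, 102, 179 and 223 in non-injured apexes. The lowest peak library of both loci was over 4 times the highest of the others, at 4.08 and 4.29 times.

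XLOC_025405 and XLOC_025377 differed in what came before the peak. XLOC_025405 had 1270.4, 1673, 1609 and 1383 at 1.5 dpci against 189, 176, 242 and 265 in non-injured apexes, a ratio of means of 6.81. XLOC_025377 had 1103, 1708, 1091 and 1129.5 at 1.5 dpci against 31.6, 44.4, 40.99 and 26.3 in non-injured apexes, a ratio of 35.1. Both stayed in narrow ranges at 3 dpci, 254 to 315 for XLOC_025405 and 212 to 285 for XLOC_025377.

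XLOC_054532 and XLOC_000892, also among the 10 leading loci, had lower values. XLOC_054532 had 538, 536, 485 and 441 at 1.5 dpci and at most 135 in any other library. XLOC_000892 had 369.9, 327, 458 and 134 at 1.5 dpci, and its replicate 4 lay only 1.15 times above 14 dpci replicate 3, which had 117. Its other groups were each spread widely, as with 99.95, 93.4, 10.6 and 39.4 at 3 dpci.

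**Figure D2:**
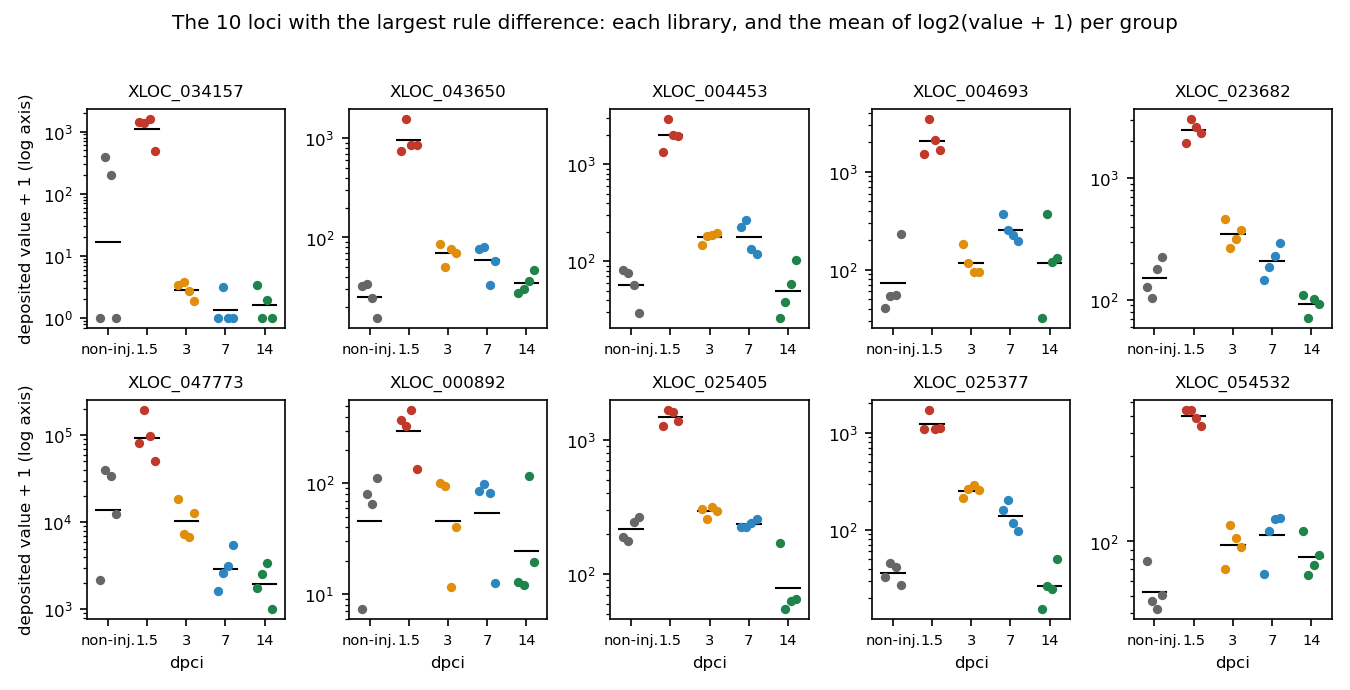
Values of the 10 loci with the largest rule difference in each library (points, value + 1 on a log axis, one panel per locus with its own range), with the mean of log2(value + 1) per group (lines). The 4 points at 1.5 dpci lie above all others in each panel, and the lowest of them is 1.29 times the highest non-injured library in XLOC_034157 and 1.26 times in XLOC_047773.

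XLOC_047773 held the largest deposited values of the 52, on a scale not divided by length. It had 2182, 40109, 33725 and 12550.5 in non-injured apexes, 80469, 194498, 98299 and 50582 at 1.5 dpci, 18765, 7382, 6805 and 12815 at 3 dpci, 1609.8, 2636, 3178 and 5442 at 7 dpci and 1737, 2521, 3396 and 1006 at 14 dpci. Its non-injured libraries were spread over more than 10-fold, and 3 of the 4 lay above all 7 and 14 dpci libraries. At 1.5 dpci the locus ranked between 3 and 21 among all loci of a library by value, and it made up 51.5% to 74.8% of the sum over the 52 loci. The 52 loci together held 0.0328% to 0.204% of all values in the non-injured libraries, 0.444% to 1.18% at 1.5 dpci, 0.0978% to 0.182% at 3 dpci, 0.0453% to 0.0734% at 7 dpci and 0.0313% to 0.0490% at 14 dpci. Without XLOC_047773 the share was 0.215% to 0.298% at 1.5 dpci against 0.0257% to 0.0438% in non-injured apexes.

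Next by mean deposited value at 1.5 dpci, which depends on length as well, came XLOC_057330 and XLOC_058160. XLOC_057330 had 5299, 5631, 3988 and 2762 at 1.5 dpci against 991, 380.2, 123 and 415 in non-injured apexes. At 14 dpci it had 2309, 297, 1045 and 182, with replicates 1 and 3 above every non-injured library. XLOC_058160 was much tighter, with 3548, 3705, 3230.1 and 3133 at 1.5 dpci against 322, 461, 370.1 and 279 in non-injured apexes. At the low end stood XLOC_016143, with 194, 232, 191 and 221 at 1.5 dpci, and XLOC_053604, with 345, 195, 219.8 and 257, and XLOC_001784, with 288, 281, 330.3 and 211.

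The last 3 loci inside the limit on the rule difference were XLOC_016143 at 1.02, XLOC_029399 at 1.0017 and XLOC_037796 at 1.0015. The first 3 outside were XLOC_029398 at 0.992, XLOC_061099 at 0.989 and XLOC_022132 at 0.986. XLOC_029399 had 1109, 827, 827 and 792 at 1.5 dpci and 278 to 566 elsewhere. XLOC_029398, which carries the next lower number and missed the limit, had 358, 290.3, 217 and 294 at 1.5 dpci and 89.8 to 179.6 elsewhere. In all, 274 loci met every criterion but the rule difference. Among the 52, 13 had a lowest peak library at least 2 times the highest of the other 16, and in 2 the ratio was under 1.1.

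The 4 libraries at 1.5 dpci did not contribute alike. Replicate 2 was the highest of the 4 in 29 of the 52 loci and replicate 4 in 3. Over all loci of mean at least 100 the same libraries were highest in 23.7% and 21.0%. Replicate 4 was the lowest in 25 of the 52 loci, against 22.3% of all loci of that mean. The median deviation from the locus mean was 0.21 on the log2 scale in replicate 2 and -0.17 in replicate 4. Without 1.5 dpci replicate 4 the criteria found 72 loci, without replicate 1 they found 62, without replicate 3 58 and without replicate 2 48. Libraries of other groups moved the count as well. It was 66 without 3 dpci replicate 1, 65 without 7 dpci replicate 4 and 46 without non-injured replicate 1. Leaving out a library can only loosen the criterion on the lowest 1.5 dpci and highest other library. These counts therefore do not measure how much a library contributed.

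**Figure D3:**
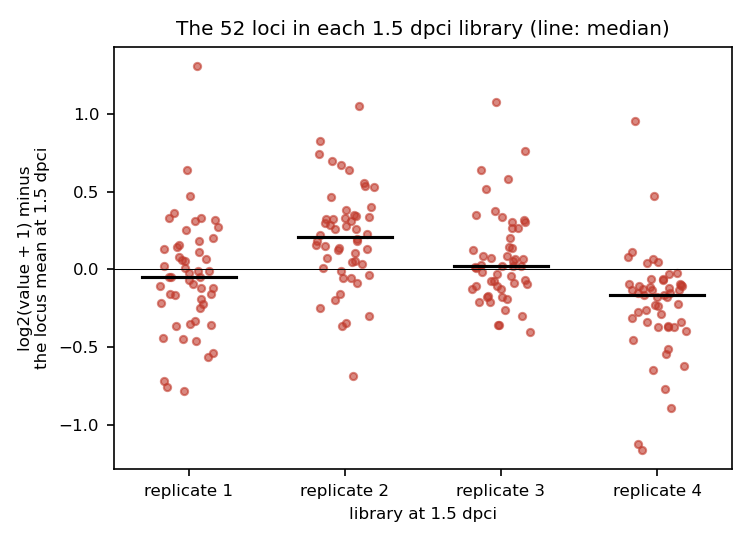
Log2(value + 1) of each of the 52 loci in the 4 libraries at 1.5 dpci, minus the mean of the locus over these libraries (points), with the median per library (lines). The medians run from -0.17 in replicate 4 to 0.21 in replicate 2, and points of single loci reach beyond 1 in replicates 1, 2 and 3 and below -1 in replicate 4.

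The SD of log2(value + 1) over the 4 libraries of a group was mostly larger in the 52 loci than in others. At 1.5 dpci its median was 0.33 for the 52 and 0.21 for all loci of mean at least 100, and in non-injured apexes it was 0.61 for the 52 and 0.25 for all loci of that mean. The tightest at the peak was XLOC_020177, with 299.6, 287, 268 and 302, followed by XLOC_030667, with 2649, 2878, 2915 and 2541. The widest was XLOC_027583, with 1509.7, 378, 674 and 356, where replicate 1 alone was more than 2 times any other library.

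How much of the peak was left at 3 dpci was measured as the part of the log2 difference between 1.5 dpci and non-injured apexes that remained. The median over the 52 loci was 26.3%. In 13 loci more than 50% remained, in 27 between 0 and 50%, and in 12 the 3 dpci mean was already below the non-injured mean. XLOC_009381 kept the most, 76.6%, with 30.3, 259.7, 109 and 53.9 in non-injured apexes, 2239, 3272, 1837 and 1934 at 1.5 dpci and 1535, 936, 1273 and 650.2 at 3 dpci. XLOC_060446 stood at the other end with -76.3%, and had 167, 464, 109 and 509 in non-injured apexes, 625, 964, 2269 and 979 at 1.5 dpci and 83.7, 129.5, 75.1 and 64.2 at 3 dpci. XLOC_030175 had -48.2%, with 138, 62.9, 85.7 and 93.5 at 3 dpci and 119, 85.9, 209 and 159 in non-injured apexes. These shares contain 1.5 dpci values and carry no test.

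The selection held both 3 dpci and the non-injured group below 1.5 dpci, and asked for a mean of at least 5 in the non-injured group only. It set no criterion on the difference between the 2 groups, which was tested, although its values are not wholly independent of the selection. The same holds for the later groups. Against non-injured apexes, 20 of the 52 loci rose and 0 fell at 3 dpci by limma at an adjusted p below 0.05, with 25 of the 52 at an unadjusted p below 0.05, against 21591 of the 62594 loci tested and 8633 of the 16199 loci of mean at least 100. Over all 62594 loci tested, 12.9% were higher and 10.4% lower, and over the loci of mean at least 100, 18.7% and 23.2%. This mean includes the 1.5 dpci libraries, so here and below those loci are not matched in level to the 52 in the groups compared. The group means of the 52 had a median of 142 in non-injured apexes and 90.5 at 14 dpci. The median log2 change was 0.61 for the 52 loci and 0.02 for all loci tested, and 40 of the 52 changes were positive. Against non-injured replicates 1 and 2 alone 16 of the 52 were higher and 0 lower, where 10.4% and 9.27% of all loci passed. Against replicates 3 and 4 alone 20 were higher and 1 lower, where 10.04% and 8.39% passed. On recovered reads edgeR called 19 higher and 2 lower (11.1% and 10.45% of all loci), and limma called 1 lower without non-injured replicate 2, 3 or 4.

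XLOC_048615 rose most at 3 dpci. It had 205, 302, 391 and 265 at 3 dpci against 13.9, 10.9, 0 and 0 in non-injured apexes, with a log2 change of 6.28 (SE 0.89, limma adjusted p = 6.36e-05). The groups lay far apart, but the size of this change depends on the pseudocount (7.99 with 0.1 and 4.95 with 5), since 2 non-injured libraries are at 0 and the other 2 hold 11 reads each. At its peak the locus had 1369, 1253, 1327 and 935.

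XLOC_004499 had 861, 908, 1519.8 and 448 at 3 dpci against 18.9, 192, 87.5 and 56.3 in non-injured apexes, with a log2 change of 3.69 (SE 0.74, limma adjusted p = 0.00157). XLOC_009381, with the values given above, had a log2 change of 3.64 (SE 0.68, limma adjusted p = 0.000786). In both loci every 3 dpci library was above every non-injured one, and at the peak they were higher again, XLOC_004499 with 2523, 1943, 2319 and 2492. Of the 20 loci that rose, 17 had groups without overlap. This is a description only, since the same share was not counted over all loci that rose. The smallest changes among the 20 were those of XLOC_031622 and XLOC_042454, both with a log2 change of 0.61.

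The 32 loci that did not pass at 3 dpci include the next 2. XLOC_030667 had 1306, 1314, 1433 and 1133 at 3 dpci against 1007, 1445, 1332 and 1543 in non-injured apexes, and the groups overlapped. XLOC_024041 had 566, 505, 569 and 624 against 405, 525, 685 and 704, which overlapped too.

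**Figure D4:**
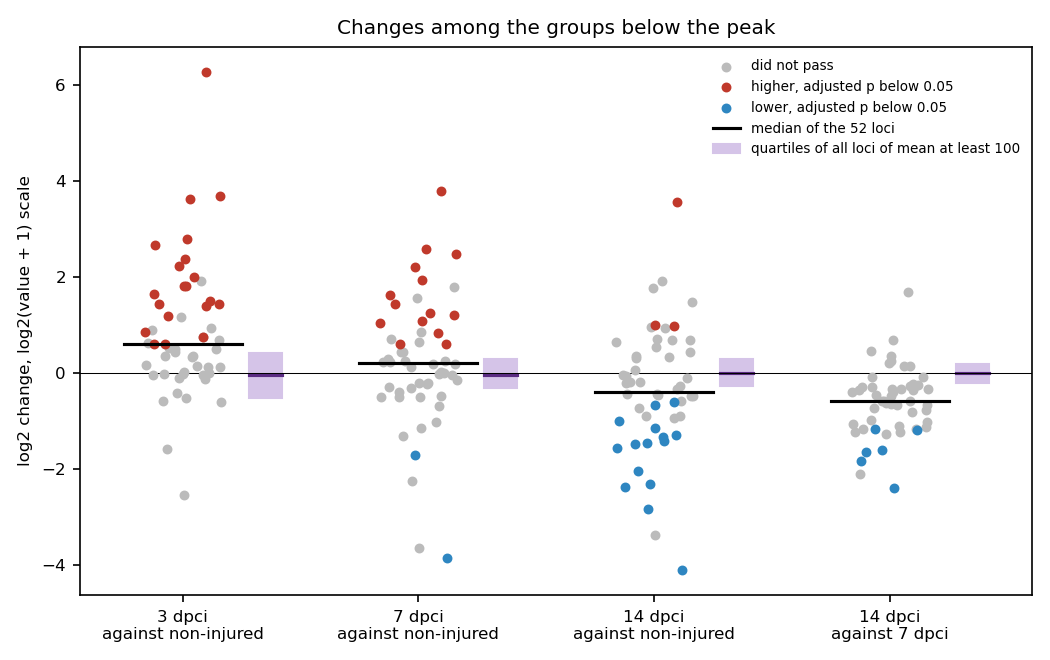
Log2 changes of the 52 loci in 4 comparisons that do not contain 1.5 dpci (points, red for higher and blue for lower at a limma adjusted p below 0.05, grey for the rest), with their median (black line) and, beside them, the quartiles and median of all loci of mean at least 100 (purple). The median of the 52 is 0.61 at 3 dpci, 0.21 at 7 dpci and -0.38 at 14 dpci against non-injured apexes, and -0.57 at 14 dpci against 7 dpci.

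At 7 dpci 14 of the 52 loci were higher and 2 lower than in non-injured apexes, by the same limma test, against 6.43% and 5.45% of all loci tested and 9.59% and 8.32% of the loci of mean at least 100. The median log2 change was 0.21, and 0.00 over all loci. At 14 dpci 3 were higher and 15 lower, against 5.88% and 6.63% of all loci and 7.78% and 9.03% of the loci of mean at least 100, with a median log2 change of -0.38 and 34 negative changes. On recovered reads, which lack 7 dpci replicate 1, edgeR called 8 higher and 2 lower at 7 dpci (4.48% and 3.38% of all loci). It called 4 higher and 16 lower at 14 dpci (4.09% and 6.06%). The 3 comparisons share the non-injured libraries. Against non-injured replicates 1 and 2 alone, 2 loci rose and 0 fell at 7 dpci, where 1.65% and 0.591% of all loci passed. At 14 dpci 0 rose and 1 fell against that pair, where 0.826% and 0.81% passed. Against replicates 3 and 4 alone 13 rose and 3 fell at 7 dpci, where 10.49% and 8.9% of all loci passed. At 14 dpci 7 rose and 14 fell against this pair, where 10.23% and 9.996% passed. Single libraries moved these counts as well. The rises at 7 dpci were 7 without non-injured replicate 4 or 7 dpci replicate 4, where 3.76% and 4.91% of all loci rose. They were 8 without non-injured replicate 3 or 7 dpci replicate 2 (3.71% and 4.47%), and 9 without 7 dpci replicate 1 (5.04%). The rises at 14 dpci were 0 without non-injured replicate 3 or 4, where 2.91% and 2.93% of all loci rose. They were 1 without 14 dpci replicate 4 (3.41%), 5 without non-injured replicate 1 (7.57%) and 7 without 14 dpci replicate 1 (7.21%). The falls at 14 dpci were 8 without non-injured replicate 4, where 3.49% of all loci fell. The falls at 7 dpci were 4 without non-injured replicate 1, where 6.79% of all loci fell. They were 1 without non-injured replicate 2 or 3 (6.96% and 2.65%), and 1 without 7 dpci replicate 1, 2 or 4 (4.08%, 3.52% and 3.52%).

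The largest rises at 7 dpci were again those of XLOC_048615, XLOC_009381 and XLOC_004499. XLOC_048615 had 123, 27.4, 37.8 and 47.1 at 7 dpci, a log2 change of 3.80 (SE 0.89, limma adjusted p = 0.011) against non-injured apexes. XLOC_009381 had 407, 399, 350.3 and 1099 at 7 dpci, a log2 change of 2.58 (SE 0.68, limma adjusted p = 0.0204). XLOC_004499 had 324, 276, 217 and 979.7, a log2 change of 2.49 (SE 0.74, limma adjusted p = 0.0383). In XLOC_009381 and XLOC_004499 replicate 4 was well above the other 7 dpci libraries, and in XLOC_048615 replicate 1 was. The recovered reads lack 7 dpci replicate 1, so edgeR differed from the main test in samples as well as in method. The 3 calls were lost in the model of the 8 libraries, with edgeR on recovered reads and against non-injured replicates 1 and 2 alone, where the log2 change of XLOC_048615 was 1.93. Leaving out non-injured replicate 1 or 4 or 7 dpci replicate 4 also ended those of XLOC_009381 (log2 2.11, 2.38 and 2.20) and XLOC_004499 (1.91, 2.42 and 2.02), and leaving out non-injured replicate 3 or 7 dpci replicate 1 or 2 that of XLOC_004499 (2.63, 2.55 and 2.63).

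XLOC_018299 fell at 7 dpci. It had 30.1, 29.6, 27.03 and 26.9 at 7 dpci against 35.4, 928, 1034 and 909.6 in non-injured apexes, with a log2 change of -3.85 (SE 0.74, limma adjusted p = 0.00334). At 3 dpci it had 956, 1044, 535 and 835 while the 14 dpci libraries had 17.9, 37.5, 22.7 and 20.46. Its non-injured replicate 1 was at the level of the late libraries and the other 3 at that of 3 dpci, so that the size of the fall depends on which non-injured library is taken. XLOC_027583, the other locus that fell, had 38.1, 46.02, 72.4 and 30.7 at 7 dpci against 68.2, 285, 199 and 116 in non-injured apexes, and the 2 groups overlapped. The call of XLOC_018299 was lost in the model of 8 libraries and with limma-voom, which ran without 7 dpci replicate 1. It was also lost against non-injured replicates 1 and 2 alone, where its log2 change was -2.65.

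Among the loci called lower at 14 dpci, XLOC_018299 (log2 change -4.10) and XLOC_047773 (-2.82) fell most. Their groups overlapped, with non-injured replicate 1 low in both. At 14 dpci the falls without overlap were largest in XLOC_014642, XLOC_027583 and XLOC_023001. XLOC_014642 had 8.34, 66.9, 64.2 and 11.3 at 14 dpci against 107, 173, 176 and 109 in non-injured apexes, with a log2 change of -2.38 (SE 0.68, limma adjusted p = 0.0292). XLOC_027583 had 39.3, 35.5, 24.7 and 19.4 at 14 dpci, a log2 change of -2.31 (SE 0.50, limma adjusted p = 0.00598). XLOC_023001 had 40.5, 35.5, 49.4 and 41.9 against 75.8, 130.4, 119 and 199, a log2 change of -1.55 (SE 0.30, limma adjusted p = 0.00244). All 4 of the 14 dpci libraries of these loci were below all 4 non-injured ones, and in XLOC_014642 replicates 1 and 4 were near 10 while the other 2 were above 60. The 3 calls were lost against non-injured replicates 1 and 2 alone, with log2 changes of -2.36, -2.25 and -1.24. That of XLOC_014642 was also lost without non-injured replicate 2, 3 or 4 or 14 dpci replicate 1 or 4, with log2 changes between -2.49 and -1.87.

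Of the 3 loci that were higher at 14 dpci, XLOC_031501 and XLOC_053604 had no overlap. XLOC_031501 had 139, 72.9, 75.1 and 94.1 at 14 dpci against 65.7, 63.2, 36.6 and 29.9 in non-injured apexes, a log2 change of 0.98 (SE 0.26, limma adjusted p = 0.0191). XLOC_053604 had 39.3, 43.6, 97.8 and 122 against 35.4, 32.6, 29.9 and 33.5, a log2 change of 1.02 (SE 0.33, limma adjusted p = 0.049). The lowest 14 dpci libraries of both stood close to the highest non-injured ones. The call of XLOC_031501 was lost without non-injured replicate 3 or 4 or 14 dpci replicate 1 (log2 0.87, 0.78 and 0.78). That of XLOC_053604 was lost without any 1 of the non-injured libraries or without 14 dpci replicate 3 or 4 (log2 0.73 to 1.05). A model of these 8 libraries alone gave 0 rises and 6 falls among the 52, where 2.09% and 2.90% of all loci passed.

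Between 14 and 7 dpci, groups that share no libraries with the non-injured group, 0 of the 52 loci were higher and 6 lower by limma, against 0.105% and 0.299% of all loci tested and 0.148% and 0.71% of the loci of mean at least 100. At an unadjusted p below 0.05, 21 of the 52 loci differed, against 7020 of the 62594 loci tested and 2615 of the 16199 loci of mean at least 100. On recovered reads, which lack 7 dpci replicate 1, edgeR called 0 of the 52 higher and 6 lower, against 0.0736% and 0.270% of all loci. The median log2 change was -0.57 for the 52 loci and -0.01 for all loci, and 44 of the 52 changes were negative. With only the 8 libraries of these 2 groups in the model 0 of the 52 passed, where 0.0334% of all loci were lower, so the 6 calls rest on the spread estimated over all 5 groups.

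XLOC_025377 fell most. It had 14.3, 25.3, 23.7 and 49.1 at 14 dpci against 159, 204, 117 and 96.1 at 7 dpci, with a log2 change of -2.39 (SE 0.29, limma adjusted p = 0.000649). Its 14 dpci libraries covered the range of the non-injured ones, which were 26.3 to 44.4. XLOC_004453 had 25.03, 37.5, 57.3 and 102 at 14 dpci against 226, 266, 132 and 119 at 7 dpci, with a log2 change of -1.83 (SE 0.38, limma adjusted p = 0.0326). XLOC_058160 had 172, 357, 371 and 407 against 803, 999, 908 and 1180.5, with a log2 change of -1.63 (SE 0.23, limma adjusted p = 0.00331). The groups of these 3 loci did not overlap, with the widest gap in XLOC_058160. The call of XLOC_004453 was lost without 7 dpci replicate 1 or 2 or 14 dpci replicate 1 or 2 (log2 -1.71, -1.63, -1.52 and -1.71).

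The other 3 loci that fell were XLOC_025405, XLOC_042717 and XLOC_023682, with log2 changes of -1.59, -1.18 and -1.16, and their groups did not overlap either. XLOC_025405 had 170.5, 53.7, 62.3 and 64.4 at 14 dpci against 224, 225, 240.0 and 256 at 7 dpci, with replicate 1 apart from the other 14 dpci libraries. At 14 dpci this locus was also lower than in non-injured apexes by the limma test. XLOC_042717 had 504, 500.5, 479.8 and 492 at 3 dpci, 235, 242, 252 and 342 at 7 dpci and 92.98, 87.1, 118 and 191 at 14 dpci, each group below the one before without overlap.

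Some of the 52 loci stood next to each other in the numbering of the assembly. XLOC_024039, XLOC_024040 and XLOC_024041 carry consecutive numbers, and 10 loci lie within 10 numbers of another. XLOC_024039 had 1135, 1586, 1248 and 1140.4 at 1.5 dpci against 399, 356, 566 and 601 in non-injured apexes. XLOC_024040 had 451, 591, 527 and 459 against 169, 163, 237 and 243, and XLOC_024041 had 1919.8, 2438, 2026 and 1638 against 405, 525, 685 and 704. The 3 loci moved in the same libraries, with Pearson's r of 0.995 and 0.977 between neighbours over log2 values of the 20 libraries, and still 0.989 and 0.941 over the 16 libraries outside 1.5 dpci. In the same measures XLOC_006049 and XLOC_006051 had 0.973 and 0.951, XLOC_023001 and XLOC_023007 0.964 and 0.928, and XLOC_014642 and XLOC_014644 0.802 and 0.612. XLOC_024041 and XLOC_024049, 8 numbers apart, had 0.727 over the 20 libraries and -0.0688 over the 16. These correlations are over libraries that share groups and scaling. Whether such loci are pieces of one gene was not tested.

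Loci that stand directly before or after one of the 52 were taken by their number, without those that met the criteria themselves. The contrast tested in them is the one that chose the loci beside them, and loci close in number were alike over the whole table (below). Their changes are therefore not independent of the selection. Of 98 such loci 95 could be tested, and 36 rose and 13 fell at 1.5 dpci against non-injured apexes (37.9% and 13.7%, limma adjusted p below 0.05, against the 12.8% and 10.1% over all loci). Their median log2 change was 0.43, and 0.09 over all loci. At 2 numbers away 22.8% were higher, at 3 numbers 16.3%, and from 4 to 10 numbers between 10.99% and 16.5%. At least 1 neighbour was higher for 31 of the 52 loci. Neither these 31 nor the 37.9% were set against the neighbours of other loci that rose, so they are a description only. The count of 36 was between 25 and 37 under the alternatives run, and the count of 13 was 8 without non-injured replicate 3 or 1.5 dpci replicate 1.

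Of the 36 neighbours that rose, 27 had a mean under 100, as did 63 of the 95 tested neighbours and 46395 of the 62594 loci tested. Of the 63 tested neighbours with a mean under 100, 27 were higher and 3 lower, 42.9% higher against 11.3% of all loci under that mean. Some of these rises stand near the floor, as in XLOC_048614, XLOC_037795 and XLOC_014641, with means of 0.854, 1.28 and 1.37 over the 20 libraries. Of the 32 with a mean of at least 100, 9 were higher and 10 lower, 28.1% higher against 17.04%. Over all loci of that mean 24.2% were lower. Over the 20 libraries 16 neighbours had a Pearson's r above 0.8 with the locus beside them, while 33 had an r of 0 or less. XLOC_014643, between XLOC_014642 and XLOC_014644, had 164, 278, 135 and 152 at 1.5 dpci against 24.00, 41.5, 40.99 and 14.4 in non-injured apexes, with a log2 change of 2.61. XLOC_024042, after XLOC_024041, had 149, 199.6, 100.3 and 102 against 22.7, 24.7, 15.5 and 14.4, with a log2 change of 2.75. Both had every 1.5 dpci library above every non-injured one, and both were among the 36 called higher. They were named after their values had been seen.

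**Figure D5:**
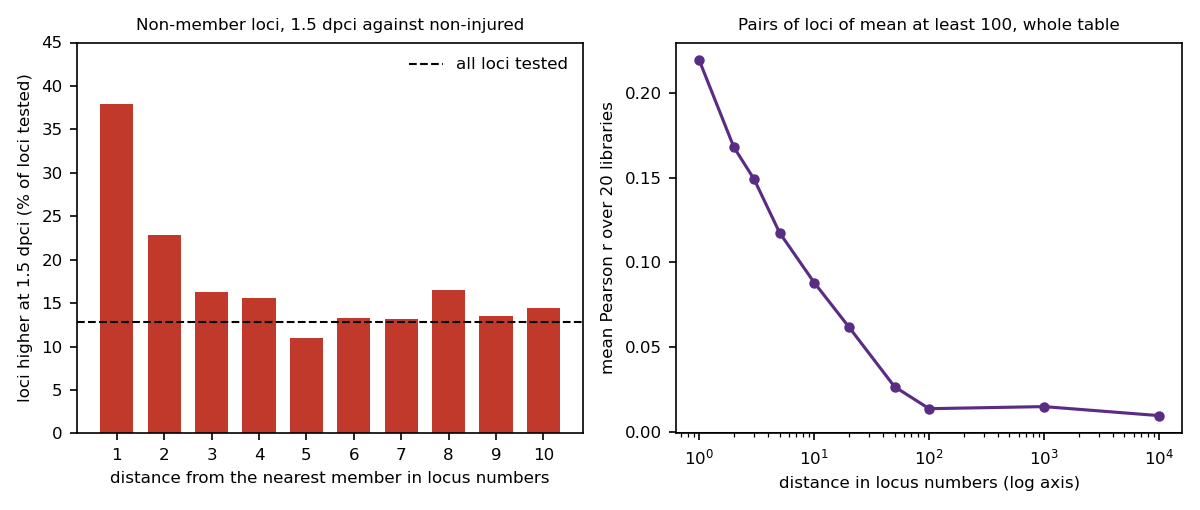
Left, share of loci higher at 1.5 dpci than in non-injured apexes (limma adjusted p below 0.05) by distance in locus numbers from the nearest of the 52 loci, with the share over all loci tested (12.8%) as a dashed line. Right, mean Pearson's r over 20 libraries of pairs of loci of mean at least 100 in the whole table, by their distance in numbers (log axis). The share is 37.9% at a distance of 1 and comes near the dashed line from 3 or 4 on, and the mean r goes down from 0.22 at a distance of 1 to 0.01 at 100.

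Loci close in number were alike across the whole table as well. Pairs of loci of mean at least 100 had a mean r of 0.219 at a distance of 1 (6356 pairs), 0.0881 at 10 and 0.0136 at 100. The numbers follow the order of the assembly, and positions on the genome are not used here. Whether a neighbour that rose belongs to the same gene as the locus beside it was not tested.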

How the data were processed

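RNA of 20 pooled apex libraries was sequenced by a service provider for the authors (stranded total RNA, GRCz10, Cufflinks, Cuffmerge and Cuffdiff). The deposited values are a signal, reads per locus divided by a size factor for each library, not by length, although FPKM is named in the methods. In 19 libraries all values up to 20 reads were whole multiples, within 0.1 read, of the value of 1 read, and reads were recovered. In 7 dpci replicate 1 the reads were left unrecovered, so edgeR and limma-voom ran without this library. The replicate libraries differed beyond counting noise (chi-square per degree of freedom 12.4 to 70.0). Gene names, which fill 42278 of 66128 entries, were not used, as they do not stand beside their loci. Every value column matched a sample.

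Loci with any value above 0 (62594) were tested in R 4.3.3 with limma 3.58.1 (trend and robust, statmod 1.5.0) on log2(value + 1), in one model of 5 groups, with Benjamini-Hochberg adjustment over all loci and a threshold of 0.05. Changes on this scale understate those of low loci. The main limma fit was run on simulated data with 200 loci changed at 3 dpci by folds of 4 or 8 up or down. It recovered 94% of them, with 8 calls among the unchanged loci. Between 14 and 7 dpci, where nothing was changed, it gave 1 call. The changed loci were drawn only from those with a simulated base mean of at least 100, while the non-injured means of the 52 had a lower quartile of 78.6. Libraries were drawn independently, without the split of the non-injured libraries seen in the data. The simulation therefore does not show how the fit behaves for lower loci or with such a split. The criteria and the alternatives were not run on simulated data. Alternatives were edgeR 4.0.16 (quasi-likelihood test) and limma-voom on recovered reads, other scalings, filters and pseudocounts, a replicate block, single libraries left out, and pairs of non-injured libraries. Named loci were the 10 with the largest rule difference, the last inside and first outside its limit, the largest changes without overlap, the extremes of value, spread and part kept at 3 dpci, and consecutive loci, and any further locus was named after its values were seen. The loci and these choices were made with earlier results of these data known. As the labels name no animals, p-values measure the spread between pooled libraries. The results of the paper also name apexes at 21 dpci, which are not among the 20 libraries.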

Additional observations from a re-analysis of the deposited data

Results flagged for a closer look

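In the 32 named loci and 5 groups of 4 libraries each, 160 groups in all, a single library far from the other 3 was looked for, by Dixon's 95% critical value on log2(value + 1). In unselected and independent groups chance alone flags about 1 in 20, or 8 here, and 13 were found. The named loci were chosen on these same values and some move together, so the comparison is not a test. Their causes were not tested.

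At the peak, XLOC_034157 was low in 1.5 dpci replicate 4 (log2 8.95, a value of 494 against 1349 to 1585 in the other 3). XLOC_025377 was high in 1.5 dpci replicate 2 (log2 10.74, 1708 against 1091 to 1130), and XLOC_029399 in 1.5 dpci replicate 1 (log2 10.12, 1109 against 792 to 827). XLOC_031501 was low in 1.5 dpci replicate 2 (log2 8.14, 281 against 333 to 342).

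Among non-injured libraries, XLOC_018299 was low in replicate 1 (log2 5.18, 35.4 against 909.6 to 1034) and XLOC_020177 high in replicate 3 (log2 6.003, 63.2 against 39.5 to 40.4). At 3 dpci XLOC_001784 was low in replicate 3 (log2 5.22, 36.2 against 64.8 to 67.5).

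At 7 dpci replicate 4 was apart in 3 loci, low in XLOC_000892 (log2 3.65, 11.5 against 80.0 to 98.6) and XLOC_016143 (log2 6.39, 82.6 against 98.2 to 102) and high in XLOC_009381 (log2 10.10, 1099 against 350.3 to 407). XLOC_034157 had 2 reads in 7 dpci replicate 2 (log2 1.67) and 0 in the other 3. At 14 dpci replicate 1 was apart in 2 loci, high in XLOC_025405 (log2 7.42, 170.5 against 53.7 to 64.4) and low in XLOC_058160 (log2 7.43, 172 against 357 to 407).

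The change against non-injured apexes differed between 14 and 7 dpci in 6 of the 52 loci by the limma contrast of the 2 groups, all lower at 14 dpci, and in 0 with a model of the 8 libraries.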

How the results depend on the processing

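The alternatives were TMM rescaling, quantile normalization, the filter, other pseudocounts, limma-voom and edgeR. Also run were the model of 8 libraries, pairs of non-injured libraries, the replicate block and the omission of single libraries. A reversed sign was looked for only in the named loci chosen for the largest changes past the threshold without overlap, and none was found. For changes chosen in this way, leaving out libraries could not reverse the sign. The rises at 3 dpci stayed between 16 and 21 loci, while the share of all tested loci that rose ran from 10.04% to 17.76%. The falls there were 2 with quantile normalization, 2 with edgeR, 1 with the filter (a value of at least 10 in 4 libraries), 1 with a pseudocount of 5, 1 in the model of 8 libraries and 1 against non-injured replicates 3 and 4 only.

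Rises at 7 dpci were 4 in the model of 8 libraries, 7 with limma-voom, 8 with edgeR and 2 against non-injured replicates 1 and 2 only. Falls at 7 dpci were 1 in the model of 8 libraries, 0 with limma-voom and 0 against that pair. Limma-voom and edgeR ran without 7 dpci replicate 1. In the model of 8 libraries 2.83% of all loci rose and 2.15% fell at 7 dpci, and with limma-voom 4.87% and 3.565%. At 14 dpci the model of 8 libraries gave 0 rises and 6 falls, replicates 1 and 2 only gave 0 and 1, and replicates 3 and 4 only gave 7 rises. Between 14 and 7 dpci the model of 8 libraries gave 0. Lower neighbours at 1.5 dpci were 6 against non-injured replicates 1 and 2 only.

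With single libraries left out, the ranges were 18 to 21 rises and 0 to 1 falls at 3 dpci, 7 to 12 and 1 to 4 at 7 dpci, 0 to 7 and 8 to 18 at 14 dpci, and 4 to 6 falls between 14 and 7 dpci. The shares over all loci moved as well, with 10.77% to 12.02% higher and 8.268% to 9.66% lower at 3 dpci. At 7 dpci 3.71% to 8.785% were higher and 2.64% to 6.96% lower. At 14 dpci these shares were 2.91% to 7.89% higher and 3.41% to 8.58% lower. Between 14 and 7 dpci 0.0911% to 0.353% of all loci were lower. Lower neighbours ranged from 8 to 12 and higher ones from 25 to 37.

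Same-numbered libraries of different groups, less their group means, had correlations of -0.33 to 0.37, with 10 of 40 above 0.1. Libraries of unlike number were not correlated for reference, so these values cannot decide whether replicate numbers pair the samples. A replicate block gave 19 rises at 3 dpci, where 12.3% of all loci rose. It gave 12 rises and 2 falls at 7 dpci (6.02% and 4.96% of all loci) and 2 and 15 at 14 dpci (5.25% and 6.045%). Between 14 and 7 dpci it gave 6 falls, where 0.315% of all loci fell.

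The tested log2 changes of named loci, all chosen as past the threshold, were rerun under the alternatives. Counting each change once per alternative, 216 stayed past the threshold and 63 lost it. The list itself held 48 loci with TMM, 52 with a pseudocount of 0.1, 49 with 5, and 46 to 72 with a library left out. The cause of these changes was not tested. Depth limits the loci at 0 reads.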
